A study of Mus musculus with 8 samples.

Results

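The genes described here are 8 members of the interleukin 1 (IL-1) family and its receptors, taken by symbol from count files that list 24411 genes: Il33, Il18, Il1a, Il1b, Il1rn, Il1rl1, Il1r1 and Il1rap. All 8 were found in all 8 libraries. The RNA came from the mouse squamous cell carcinoma line A223, was selected for poly(A) tails and was sequenced with 2 libraries in each of 4 groups: cells with a knockdown of PRDX6 (KD) given largazole, KD cells with DMSO, parental cells given largazole, and parental cells with DMSO. Largazole, which inhibits the class I histone deacetylases, was used at 100 nM for 18 h, and the DMSO libraries are labelled 0 h, so that drug and time changed together and cannot be told apart. PRDX6 is a peroxiredoxin that reduces peroxides, including those of phospholipids. The labels give neither the method of the knockdown nor whether the KD cells are a clone or a pool, and no control construct was analysed here.

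Most IL-1 family cytokines are made without a classical signal peptide, and several act as alarmins, that is, signals released when a barrier cell is damaged. IL-33 is kept in the nucleus bound to chromatin until it is released, IL-1α can act from its precursor form, and IL-1β and IL-18 are cut by caspase-1 in inflammasomes before release. IL-33 binds ST2, the product of Il1rl1, and IL-1α and IL-1β bind the receptor of Il1r1. Both receptors then recruit the same accessory chain, encoded by Il1rap, and signal through MyD88 and IRAK kinases to NF-κB. The receptor antagonist encoded by Il1rn occupies the IL-1 receptor without recruiting that chain. In skin and other epithelia IL-33 is known for calling in type 2 lymphoid cells, mast cells and regulatory T cells.

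Il33, Il1rl1 and Il1rap are the members whose levels were high enough to be followed across all 4 groups with the least counting error. Their promoter windows are printed because the results turn on these genes. Each window is from RefSeq on GRCm38.p6, plus strand, 5′ to 3′, and runs from 250 bases before to 50 bases after an annotated start, 300 bases in all. All 8 members matched a window, and Il33 and Il1rl1 have 2 each. Counts per gene do not tell which start was used. Capitals mark matches on either strand to the motifs searched: an NF-κB site, AP-1 (TGANTCA), the core of the interferon-stimulated response element, the SP1 box (GGGCGG) and the TATA box (TATAAA).
Il33 upstream start, chr19:29924863-29925162: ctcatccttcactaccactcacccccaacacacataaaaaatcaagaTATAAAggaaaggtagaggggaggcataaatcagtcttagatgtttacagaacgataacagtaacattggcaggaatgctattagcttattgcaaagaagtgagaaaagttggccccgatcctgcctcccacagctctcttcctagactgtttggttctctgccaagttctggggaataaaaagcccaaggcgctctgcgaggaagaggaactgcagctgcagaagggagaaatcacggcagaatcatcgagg
Il33 downstream start, chr19:29945540-29945839: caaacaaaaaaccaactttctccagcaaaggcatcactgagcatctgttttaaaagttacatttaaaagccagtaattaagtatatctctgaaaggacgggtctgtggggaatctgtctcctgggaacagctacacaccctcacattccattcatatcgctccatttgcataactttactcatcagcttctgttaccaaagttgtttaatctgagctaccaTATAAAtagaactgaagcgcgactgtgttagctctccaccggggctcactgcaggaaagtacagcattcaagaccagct
Il1rl1 upstream start, chr1:40429320-40429619: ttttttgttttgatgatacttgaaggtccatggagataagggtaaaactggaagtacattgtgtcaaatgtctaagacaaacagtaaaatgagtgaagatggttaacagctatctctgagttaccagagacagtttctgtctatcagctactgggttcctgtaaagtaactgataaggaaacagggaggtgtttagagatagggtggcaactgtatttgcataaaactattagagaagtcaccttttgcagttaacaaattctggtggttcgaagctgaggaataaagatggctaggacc
Il1rl1 downstream start, chr1:40439379-40439678: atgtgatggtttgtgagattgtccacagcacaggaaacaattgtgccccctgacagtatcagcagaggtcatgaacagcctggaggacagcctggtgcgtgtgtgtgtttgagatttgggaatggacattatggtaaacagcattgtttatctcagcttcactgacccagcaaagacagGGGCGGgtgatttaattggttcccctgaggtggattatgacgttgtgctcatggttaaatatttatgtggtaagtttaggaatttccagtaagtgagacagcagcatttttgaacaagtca
Il1rap, chr16:26581455-26581754: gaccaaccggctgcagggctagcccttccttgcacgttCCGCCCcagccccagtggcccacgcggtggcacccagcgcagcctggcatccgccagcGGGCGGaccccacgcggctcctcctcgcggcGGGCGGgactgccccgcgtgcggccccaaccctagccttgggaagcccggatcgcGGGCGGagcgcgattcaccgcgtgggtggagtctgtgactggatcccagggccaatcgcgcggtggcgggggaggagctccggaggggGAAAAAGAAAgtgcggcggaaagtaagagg

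The windows of the ligand and its receptor differ in composition from that of the shared accessory chain. G and C made up 46.3% and 42.3% of the upstream and downstream Il33 windows and 38.7% and 44.7% of the upstream and downstream Il1rl1 windows, below the median of 52.7% over all 32851 promoter windows. The Il1rap window held 72.0% G and C and 33 CpG dinucleotides, against 6 and 5 in the Il33 windows, 1 and 3 in the Il1rl1 windows and a median of 7 over all windows. A match to the TATA box began 29 bases before the downstream Il33 start and another 203 bases before the upstream one. Matches also began 32 bases before the Il1a start and 31 bases before the Il1b start. In 1 window of Il1rn and in the Il18 window a match lay on the other strand. Such matches occurred in 13.6% of all windows. The upstream Il1rl1 window held none of the 5 motifs, and the downstream one held an SP1 box, which 35.7% of all windows hold. The Il1rap window held 4 SP1 boxes and, 20 bases past the start, 1 interferon response core, a motif found in 3.44% of all windows. Among the 13 windows of the 8 members an NF-κB match occurred in 1, the second window of Il1r1, beside 4.51% of all windows. AP-1 matches occurred in the Il1a window and in 1 window of Il1rn, and in 7.81% of all windows. Whether these letters are linked to the levels below was not tested.

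Library totals ranged from 13020492 to 15613216 estimated counts, and 12517 genes were high enough to be tested. Prdx6 checked the labels: it held 1040 and 962 counts in KD largazole, 1315 and 1075 in KD DMSO, 3774 and 3533 in parental largazole and 4016 and 4189 in parental DMSO libraries, so that KD cells kept 29.8% (largazole) and 28.6% (DMSO) of what parental cells held. The KD largazole libraries differed most from each other, with an SD of 0.359 for the log2 difference between replicates over genes, against 0.194 to 0.218 in the other groups. The ribosomal precursor Rn45s also varied between replicates. In KD cells it stood at 23920 and 742 CPM (the count scaled to library size) with largazole and at 9963 and 2549 with DMSO. In parental cells it stood at 7739 and 949.8 CPM with largazole and at 1353 and 1212 with DMSO. Replicate 1, given first, was the higher in every group. Of the markers of squamous keratinocytes, Krt5 was at or below 0.312 CPM in every library. In every DMSO library Krt14 was at or below 0.222 CPM and Trp63 at 0. With largazole Krt14 stood at 1.48 and 2.09 CPM in KD and at 3.20 and 3.10 in parental libraries. Trp63 then stood at 0.935 and 0.405 CPM in KD and at 0.749 and 0.395 in parental libraries. Of 8 tested squamous markers 5 were higher and 2 lower with largazole in each kind of cell. Of all tested genes 24.6% were higher and 23.1% lower in KD cells, and 26.8% and 22.6% in parental cells. Genes counted with largazole alone could be among these 8. Krt8, a simple-epithelium keratin, stood at 1159 to 1418 CPM in KD largazole, 2182 to 2267 in KD DMSO, 1006 to 1114 in parental largazole and 1908 to 2036 in parental DMSO libraries. Itga6 and Itgb4, integrin chains of basal epithelium, stood at 69.5 to 391 CPM. Fibroblast genes were abundant, Col1a1 at 1177 to 1925 CPM. The near absence of Krt5, Krt14 and Trp63 in DMSO goes against a keratinocyte profile, and the line is called by its label here.

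**Figure D1:**
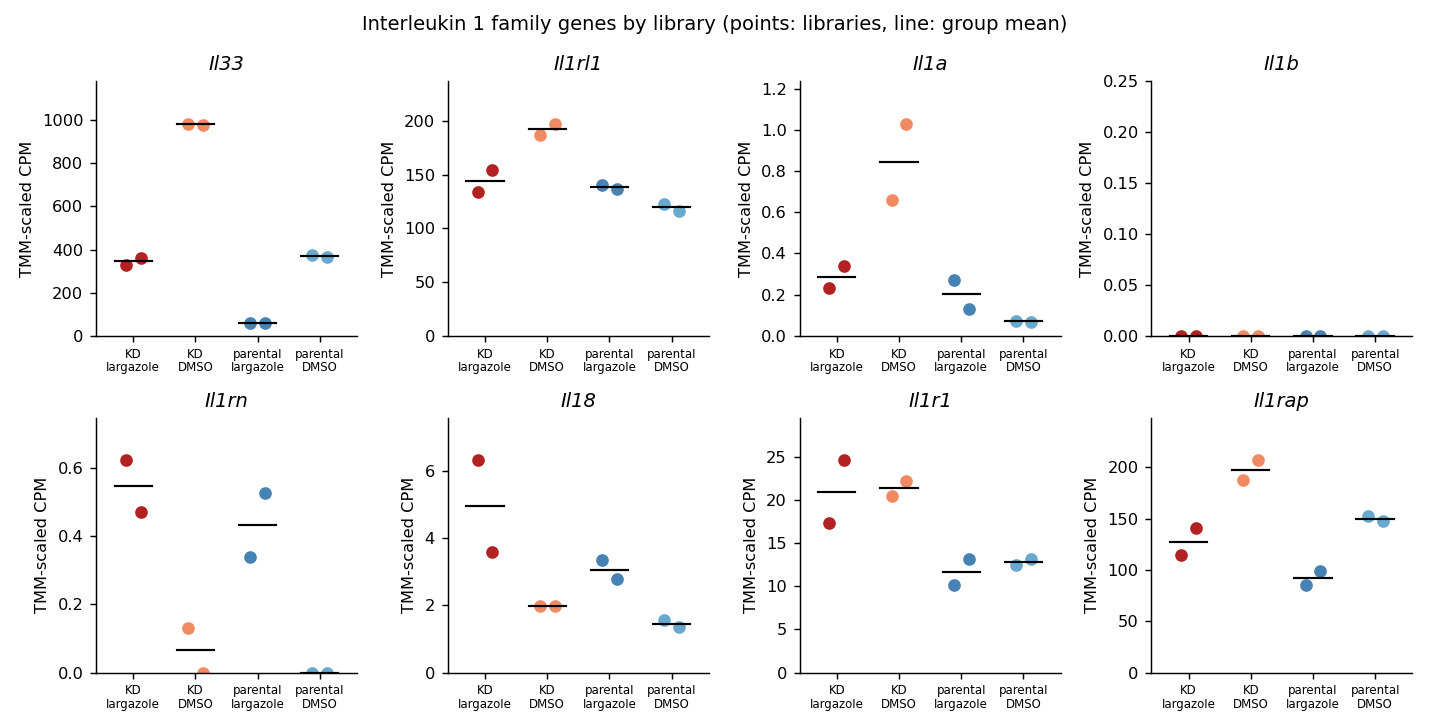
Level of each of the 8 genes in every library, as CPM scaled by TMM, on linear axes that start at 0 and differ between panels. Points are libraries and lines are means of 2. Il33 stands at 977 to 984 CPM in KD DMSO and at 58.2 to 62.0 CPM in parental largazole libraries, and Il1b is at 0 throughout.

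Among the ligands, Il33, the IL-33 gene, was by far the most abundant. It lies on chromosome 19 at 29925114-29960718, plus strand, of GRCm38, and its 5 annotated transcripts cover 2886 bases of exon. Il33 stood at 330 and 359.6 CPM in KD largazole, 983.9 and 976.6 CPM in KD DMSO, 61.97 and 58.19 CPM in parental largazole and 373.1 and 366.0 CPM in parental DMSO libraries. Parental largazole libraries were lowest and KD DMSO libraries highest, and the KD largazole libraries lay just below the parental DMSO libraries without overlap. Largazole lowered Il33 in both kinds of cell. In KD cells it fell by 1.51 ± 0.07 on the log2 scale (SE), 2.84-fold (adjusted p = 5.06e-07, edgeR quasi-likelihood, Benjamini-Hochberg adjustment). In parental cells it fell by 2.62 ± 0.08, or 6.15-fold (adjusted p = 2.70e-08, edgeR), the 27th lowest log2 fold change of 12517 genes tested. KD cells held more Il33 than parental cells in both conditions. The excess was 1.41 ± 0.07 log2, 2.65-fold, in DMSO (adjusted p = 6.14e-06, edgeR) and 2.52 ± 0.08 log2, 5.74-fold, under largazole (adjusted p = 1.29e-07, edgeR).

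The fall of Il33 was smaller in KD cells. The difference between the responses, KD minus parental, was 1.11 ± 0.10 log2 (SE, adjusted p = 0.0038, edgeR quasi-likelihood), the third smallest p among the 12517 genes. Leaving out 1 library at a time kept this difference between 1.06 and 1.17 log2. The adjusted p passed 0.05 without KD DMSO replicate 1 (0.0654), parental largazole replicate 2 (0.0587), parental DMSO replicate 1 (0.0679) or parental DMSO replicate 2 (0.0760). It was 4.39e-07 without KD largazole replicate 1 and 1.21e-06 without KD largazole replicate 2. The labels do not say that the 2 replicates of a group were separate cultures, so each p-value given here rests on a spread between libraries that may be technical. In bulk RNA, fewer cells that express a gene and less of its RNA per cell cannot be told apart.

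Il18, which encodes a ligand cut by caspase-1, moved the other way from Il33 under largazole and at a level far lower. It stood at 6.31 and 3.57 CPM in KD largazole, 1.98 and 1.99 in KD DMSO, 3.34 and 2.77 in parental largazole and 1.55 and 1.35 in parental DMSO libraries, on 20 to 81 counts a library. Every largazole library lay above every DMSO library. Il18 rose by 1.30 ± 0.32 log2 with largazole in KD cells (adjusted p = 0.00756, edgeR quasi-likelihood) and by 1.07 ± 0.35 in parental cells (adjusted p = 0.0285, edgeR). The rise in KD cells was 0.84 log2 without KD largazole replicate 1 (adjusted p = 0.0532, edgeR) and at its largest 1.66 log2 without replicate 2 of that group. The call in parental cells was lost without parental largazole replicate 1 (0.136) or replicate 2 (0.0589) and without parental DMSO replicate 1 (0.0836) or replicate 2 (0.139), the values being adjusted p of the same test. KD over parental gave 0.68 ± 0.30 log2 under largazole (adjusted p = 0.154, edgeR) and 0.45 ± 0.37 in DMSO (adjusted p = 0.517, edgeR). Without KD largazole replicate 2 the value under largazole was 1.05 log2 (adjusted p = 0.0139, edgeR), and without replicate 1 it was 0.23 log2.

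The classical IL-1 genes were near the floor. Il1b had 0 counts in all 8 libraries, which at 3 counts allows up to 0.198 to 0.234 CPM, a limit of counting error only. Il1a, a neighbour of Il1b on chromosome 2 with 54.6 kb between them, held 3 and 5 counts in KD largazole, 10 and 14 in KD DMSO, 4 and 2 in parental largazole and 1 and 1 in parental DMSO libraries. Both KD DMSO libraries were above all others. Summed over each group, KD DMSO cells had 24 counts against 2 in parental DMSO cells, a depth-scaled ratio of 11.8 with an exact 95% binomial interval of 2.94 to 103. KD largazole cells had 8 counts against 24 in KD DMSO cells, a ratio of 0.347 (0.135 to 0.797). Parental largazole cells had 6 against 2 in parental DMSO cells, a ratio of 2.85 (0.509 to 28.9), and under largazole KD cells had 8 against 6 in parental cells, 1.44 (0.438 to 5.03). These intervals cover counting error only. Exons of Il1a overlap 222 bases of Gm14023 on the other strand, which held 1 to 11 counts a library, and the strand setting of the counting is not given in the sources used here.

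Il1rn, the antagonist, was seen mainly under largazole. It held 8 and 7 counts in KD largazole, 2 and 0 in KD DMSO, 5 and 8 in parental largazole and 0 and 0 in parental DMSO libraries. All 4 largazole libraries were above all 4 DMSO libraries. In KD cells the group sums were 15 counts with largazole against 2 with DMSO, a ratio of 7.80 (exact 95% binomial interval 1.81 to 70.3). In parental cells they were 13 against 0, at least 4.11-fold higher when measured against a floor of 3 counts over the group. KD and parental cells under largazole had 15 and 13 counts, a ratio of 1.25 (0.553 to 2.84). Il1a, Il1b and Il1rn were too low for the test across genes and are not counted among the 5 members tested.

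Il1rl1, which encodes the IL-33 receptor ST2 and whose product is made as a membrane and a secreted form, lies on chromosome 1 at 40429570-40465415, plus strand. Il1rl1 stood at 133.4 and 154.6 CPM in KD largazole, 186.3 and 197.4 in KD DMSO, 140.6 and 136.1 in parental largazole and 122.7 and 116.0 in parental DMSO libraries. KD DMSO libraries were highest and parental DMSO libraries lowest, and the 2 largazole groups overlapped. In KD cells Il1rl1 fell by 0.41 ± 0.09 log2 with largazole (adjusted p = 0.00345, edgeR quasi-likelihood). In parental cells the value was 0.21 ± 0.09 log2 (adjusted p = 0.0705, edgeR), and it passed in 7 of 18 alternatives. Among them were leaving out KD largazole replicate 1 (0.00725) or replicate 2 (0.0102), upper-quartile scaling (0.0167), library totals (0.0437), a stricter filter on low counts (0.0463) and a fit restricted to the parental libraries (0.00514). KD cells held 0.68 ± 0.09 log2 more than parental cells in DMSO (adjusted p = 0.000894, edgeR). Under largazole KD over parental was 0.06 ± 0.09 log2 (adjusted p = 0.702, edgeR). The difference between the largazole responses was -0.63 ± 0.12 log2 (adjusted p = 0.110, edgeR). Without KD largazole replicate 1 or replicate 2 its adjusted p was 0.00618 and 0.000574, and it also passed with no filter on low counts (0.0231) and with DESeq2 (0.0210).

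**Figure D2:**
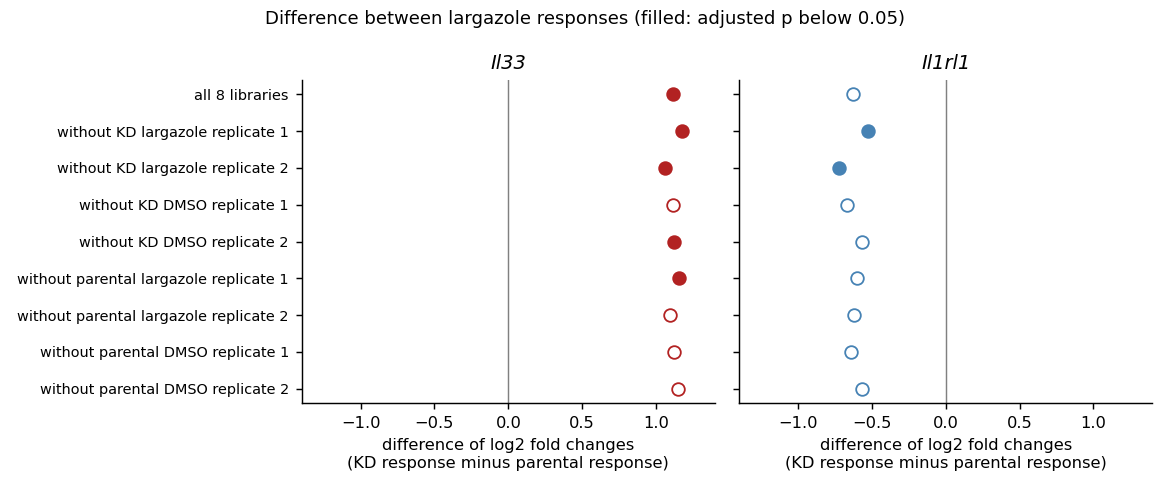
Difference between the largazole responses, KD minus parental, in log2 units for Il33 (left) and Il1rl1 (right), with all 8 libraries and with each library left out. Filled points have an adjusted p below 0.05. Il33 stays between 1.06 and 1.17 and Il1rl1 between -0.72 and -0.52, while the side of the threshold depends on the library left out.

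Il1r1, the IL-1 receptor gene, lies 112.3 kb from Il1rl1 on the same strand of chromosome 1. Il1r1 stood at 17.3 and 24.6 CPM in KD largazole, 20.5 and 22.3 in KD DMSO, 10.2 and 13.1 in parental largazole and 12.4 and 13.2 in parental DMSO libraries. All KD libraries were above all parental libraries, and largazole and DMSO libraries overlapped within each kind of cell. KD cells held 0.85 ± 0.19 log2 more Il1r1 than parental cells under largazole (adjusted p = 0.0132, edgeR) and 0.73 ± 0.19 more in DMSO (adjusted p = 0.0335, edgeR). The call under largazole was lost without parental largazole replicate 1 (adjusted p = 0.119, edgeR) and in a fit of only the libraries compared (0.0586). The call in DMSO was lost without KD DMSO replicate 1 (0.129) or replicate 2 (0.174) and without parental DMSO replicate 1 (0.232) or replicate 2 (0.178), and with library totals as the scaling (0.0517). Largazole gave -0.02 ± 0.18 log2 in KD cells (adjusted p = 0.928, edgeR) and -0.14 ± 0.20 in parental cells (adjusted p = 0.580, edgeR).

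Il1rap, the accessory chain used by both receptors, stood at 114.3 and 141.3 CPM in KD largazole, 188.1 and 207.1 in KD DMSO, 85.2 and 99.0 in parental largazole and 152.9 and 147.4 in parental DMSO libraries. The 4 groups did not overlap. Il1rap fell with largazole by 0.63 ± 0.11 log2 in KD cells (adjusted p = 0.00135, edgeR quasi-likelihood) and by 0.71 ± 0.12 in parental cells (adjusted p = 0.000680, edgeR). KD over parental was 0.47 ± 0.12 log2 under largazole (adjusted p = 0.0189, edgeR), a call lost without parental largazole replicate 1 (0.167) and in a fit of only the libraries compared (0.0858). In DMSO it was 0.40 ± 0.11 log2 (adjusted p = 0.0503, edgeR), and it passed in 9 of 18 alternatives, with the lowest value, 8.52e-05, in a fit of only the libraries compared. Il1rap shares 353 bases of exon with Gm20319 on the other strand, which had 0 counts in every library.

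**Figure D3:**
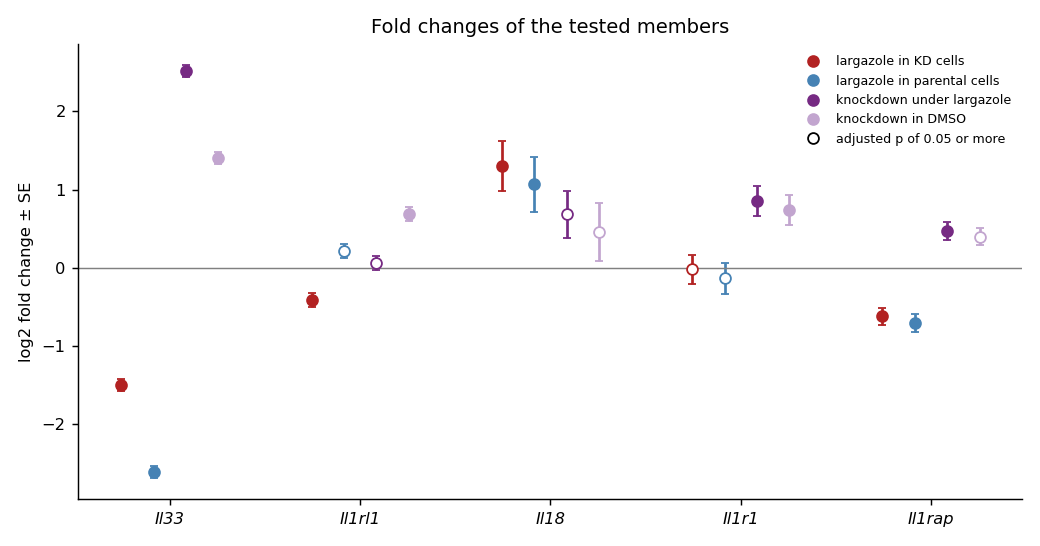
Log2 fold change with its SE for the 5 tested members in 4 comparisons from edgeR's quasi-likelihood fit. Filled points have an adjusted p below 0.05 and open points do not. Il33 has the largest changes in every comparison shown, from -2.62 with largazole in parental cells to 2.52 for KD over parental cells under largazole.

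By comparison, largazole changed 4 of the 5 tested members in KD cells, 1 higher and 3 lower, beside 47.7% of all tested genes (24.6% higher, 23.1% lower). In parental cells it changed 3, 1 higher and 2 lower, beside 49.3% (26.8% higher, 22.6% lower). KD over parental cells gave 3 members higher and 0 lower under largazole, beside 17.8% of all tested genes (8.12% higher, 9.67% lower). In DMSO it also gave 3 higher and 0 lower, beside 11.1% (7.11% higher, 4.01% lower). The count under largazole was 1 without parental largazole replicate 1, and the count in DMSO was 5 without either KD largazole library. In those last fits Il1rap passed, and Il1a was high enough to be tested and passed too (adjusted p = 0.0132 and 0.0133, edgeR), while Il18 did not. The members' median log2 fold change was 0.68 in both KD comparisons, beside 0.00 over all tested genes, and it was -0.41 with largazole in KD cells and -0.14 in parental cells, beside 0.01 and 0.03. The responses to largazole differed between KD and parental cells for 1 member, Il33, which was higher, beside 0.232% of all tested genes (0.0399% higher, 0.192% lower), and this count ranged from 0 to 2 as the libraries named above for Il33 and Il1rl1 were left out. Each comparison shares a group with 2 others, so their values are not independent.

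Levels of different genes are set side by side per kilobase of exon, taking all exons of a gene's annotated transcripts. Counts per gene do not tell which transcripts were made. Levels of different genes and their ratios therefore depend on an assumed length, an error that the spread between libraries does not cover. In KD DMSO cells Il33 led with 339.7 ± 1.78 CPM per kb (SD, n = 2), followed by Il1rl1 (27.8 ± 1.14), Il1rap (17.4), Il1r1 (3.36), Il18 (1.92), Il1a (0.428) and Il1rn (0.0119). In parental largazole cells Il33 at 20.8 ± 0.93 CPM per kb did not differ from Il1rl1 at 20.1 ± 0.46 beyond the spread, with ranges of 20.2 to 21.5 and 19.7 to 20.4. Il33 stood at 119.5 ± 7.25 CPM per kb in KD largazole and at 128.1 ± 1.74 in parental DMSO cells. The ratio of Il33 to Il1rl1 per kb was 5.91 and 5.56 in KD largazole, 12.6 and 11.8 in KD DMSO, 1.05 and 1.02 in parental largazole and 7.26 and 7.53 in parental DMSO libraries. The 4 groups did not overlap in this ratio. Il18 and Il1r1 changed places: Il18 was above Il1r1 in parental largazole cells (2.96 and 1.83 CPM per kb) and below it in both DMSO groups, and in KD largazole cells their ranges, 3.47 to 6.12 and 2.72 to 3.87, overlapped.

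The genes nearest to each member were found by the root mean square difference of log2 CPM, centred on each gene's mean, over the 8 libraries and among 10183 genes. For Il33 they were Stc1 (0.281), Tnc (0.479) and Mmp3 (0.546), which encode the hormone stanniocalcin-1, the matrix protein tenascin-C and the matrix protease stromelysin-1. Stc1 stood at 25.4 and 33.2 CPM in KD largazole, 67.5 and 73.2 in KD DMSO, 7.83 and 6.20 in parental largazole and 35.9 and 36.5 in parental DMSO libraries. The nearest of all to any member was Col6a3, a collagen VI chain, for Il1rap (0.069). Il1rl1 was nearest to Pign (0.088), Il1r1 to Slit2 (0.087) and Il18 to Prdx5 (0.126), another peroxiredoxin gene. The 4 other tested members lay 1.07 to 1.77 from Il33. By nearness to Il33 among the 10183 genes, Il1rap ranked 150th, Il1r1 419th and Il1rl1 2227th. Il18 was too low to be ranked.

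**Figure D4:**
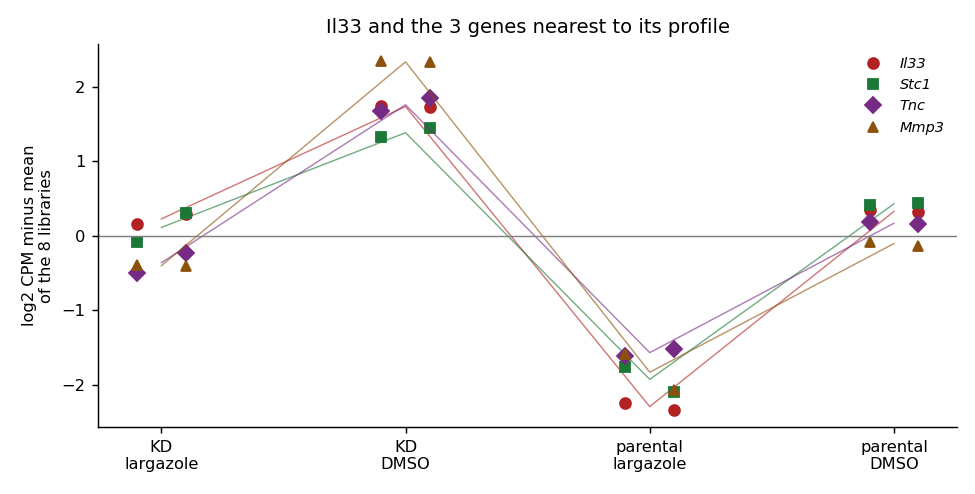
Log2 CPM of Il33, Stc1, Tnc and Mmp3, each minus its mean over the 8 libraries. Points are libraries and thin lines join group means. All 4 genes are highest in KD DMSO and lowest in parental largazole libraries, with Il33 at 1.74 and 1.73 in the first and at -2.25 and -2.34 in the second.

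Other genes of the pathway are given by lists. Of 13 further IL-1 family ligands and receptors 3 had enough counts to be tested, and 1 passed: Sigirr, a receptor that dampens the pathway, fell by 0.49 ± 0.10 log2 with largazole in KD cells (adjusted p = 0.00291, edgeR) and by 0.47 ± 0.10 in parental cells (adjusted p = 0.00347, edgeR). Il18r1, whose gene starts 0.137 kb beyond Il1rl1, held at most 4 counts in any group, whereas Il18rap, 49.95 kb from Il1rl1, held 29.97 to 44.2 CPM. Of the 21 tested genes of the relay from MyD88 to NF-κB, 3 were higher and 3 lower with largazole in KD cells, beside 24.6% and 23.1% of all tested genes. In parental cells 3 were higher and 4 lower, beside 26.8% and 22.6%. KD over parental gave 2 higher and 1 lower in either condition, beside 8.12% and 9.67% under largazole and 7.11% and 4.01% in DMSO. In DMSO the counts were at most 1 higher and 0 lower without any 1 of the KD DMSO or parental DMSO libraries, and 3 were lower without either KD largazole library. Under largazole 1 was higher and 0 lower without either parental largazole library, 0 were lower without either parental DMSO library, and 3 or 2 were lower without KD largazole replicate 1 or 2. With largazole in KD cells, 1 was higher without KD DMSO replicate 1, 0 were higher and 1 lower without KD DMSO replicate 2, and 5 were higher and 8 lower without KD largazole replicate 2. With largazole in parental cells, 1 was higher without any 1 of the parental libraries, 2 were lower without either parental DMSO library or parental largazole replicate 1, 5 were higher without either KD largazole library and 7 were lower without KD largazole replicate 2. Irak1, which encodes a kinase of the complex built on MyD88, fell by 0.84 ± 0.08 log2 with largazole in KD cells and by 0.76 ± 0.08 in parental cells (adjusted p = 3.37e-05 and 5.84e-05, edgeR). Myd88 stood at 29.5 and 22.4 CPM in KD largazole, 23.2 and 25.9 in KD DMSO, 18.9 and 19.2 in parental largazole and 20.2 and 17.3 in parental DMSO libraries, and no comparison passed. Of the 8 tested other alarmin genes, 1 was higher and 4 lower with largazole in KD cells, and 2 were higher and 3 lower in parental cells. Largazole changed 47.7% and 49.3% of all tested genes in KD and parental cells, close to these 5 of 8. The 4 became 2 without KD DMSO replicate 2, and the 2 higher became 1 without either parental largazole library and 0 without either parental DMSO library. Hmgb1 fell by 1.23 ± 0.09 log2 with largazole in KD cells and by 1.32 ± 0.09 in parental cells (adjusted p = 3.36e-06 and 2.16e-06, edgeR). HMGB1 is a chromatin protein that acts as an alarmin outside the cell, and reads of its near-identical copies may have been split in counting.

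Of 16 tested genes for maturation and release, largazole gave 5 higher and 3 lower in KD cells, beside 24.6% and 23.1% of all tested genes. In parental cells 8 were higher and 3 lower, beside 26.8% and 22.6%. With upper-quartile scaling the 5 became 9, and the 8 became fewer without any 1 parental library. Serpinb1a rose by 4.30 ± 0.31 log2 in KD cells and by 4.93 ± 0.34 in parental cells (adjusted p = 3.69e-06 and 2.96e-06, edgeR). Its DMSO means were 0.816 and 0.448 CPM. The inflammatory caspases were higher in KD cells. Casp1, which cuts IL-1β and IL-18, stood at 49.8 and 45.0 CPM in KD largazole, 77.4 and 73.8 in KD DMSO, 16.5 and 15.9 in parental largazole and 36.7 and 39.4 in parental DMSO libraries. The 4 groups did not overlap, and their order differed from that of Il33 only in that KD largazole libraries lay above parental DMSO libraries. Casp1 was 1.55 ± 0.11 log2 higher in KD than in parental cells under largazole (adjusted p = 2.33e-05, edgeR). In DMSO it was 0.99 ± 0.10 higher (adjusted p = 0.000203, edgeR). With largazole Casp1 fell by 0.67 ± 0.10 log2 in KD cells and by 1.23 ± 0.11 in parental cells (adjusted p = 0.000333 and 1.18e-05, edgeR). Casp4, which senses lipopolysaccharide inside the cell, was 1.80 ± 0.17 log2 higher under largazole and 1.64 ± 0.17 higher in DMSO (adjusted p = 0.000179 and 0.000250, edgeR). Of 16 tested genes of this list 6 were higher and 1 lower in KD cells under largazole, beside 8.12% and 9.67% of all tested genes, and 3 higher and 1 lower in DMSO, beside 7.11% and 4.01%. The 6 became 3 without parental largazole replicate 1 and 2 without replicate 2, and the 3 became 5 without either KD largazole library. The 1 lower gene in each condition was lost without any 1 of the 4 parental libraries, in DMSO also without either KD DMSO library, and 2 were lower under largazole without KD largazole replicate 2.

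Genes known to follow IL-1 receptor signalling were followed next. Signalling itself was not measured, so a change in these genes does not tell whether it changed. Of 18 tested, 12 were higher and 1 lower in KD than in parental cells under largazole, with a median of 1.15 log2, and 12 were higher and 0 lower in DMSO, with a median of 1.60, beside a median of 0.00 over all tested genes. Of all tested genes 8.12% were higher and 9.67% lower under largazole, and 7.11% higher and 4.01% lower in DMSO. Genes that were counted in 1 group alone could enter this list, so the counts are a description. Cxcl5, a neutrophil chemokine, was 2.44 ± 0.24 log2 higher in KD cells under largazole and 3.44 ± 0.35 higher in DMSO (adjusted p = 0.000224 and 0.000233, edgeR). Ccl2, a monocyte chemokine, stood at 393.2 and 292.1 CPM in KD largazole, 241.9 and 220.1 in KD DMSO, 118.5 and 110.3 in parental largazole and 63.22 and 63.15 in parental DMSO libraries. Its groups did not overlap, and unlike Il33 it was above its DMSO level in both largazole groups. The lower gene was Ptgs2, at -0.61 log2 under largazole, and it no longer passed without parental largazole replicate 2. With largazole, 6 of the 18 were higher and 4 lower in KD cells, beside 24.6% and 23.1% of all tested genes, and 10 higher and 3 lower in parental cells, beside 26.8% and 22.6%. The lower counts became 2 without KD DMSO replicate 1, and 1 without parental DMSO replicate 1 or parental largazole replicate 2. Mmp3, the gene also near to Il33, fell by 2.74 ± 0.13 log2 in KD cells and by 1.72 ± 0.14 in parental cells (adjusted p = 4.44e-07 and 7.99e-06, edgeR), while Cxcl5 rose by 1.60 ± 0.23 in KD cells and by 2.60 ± 0.38 in parental cells (adjusted p = 0.000315 and 0.000327, edgeR).

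**Figure D5:**
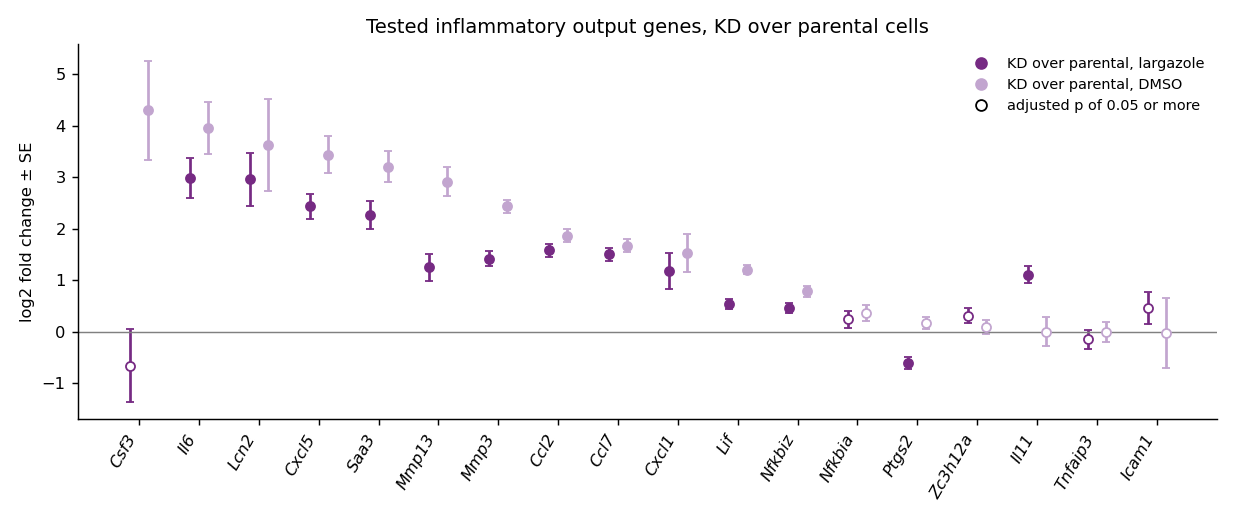
Log2 fold change with its SE, KD over parental cells, for the 18 tested genes known to follow IL-1 receptor signalling, under largazole (dark) and in DMSO (light). Open points have an adjusted p of 0.05 or more. In each condition 12 genes are higher in KD cells past the threshold.

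Markers of other cells were followed beside these genes. The 8 fibroblast markers summed to 9977 to 10190 CPM in KD largazole and 10930 CPM in both KD DMSO libraries. The sums were 9057 to 9258 in parental largazole and 9795 to 10080 in parental DMSO libraries. Vim weighs most in these sums, with means of 5257 and 5738 CPM in KD largazole and KD DMSO cells. Its means were 5540 and 6351 CPM in parental largazole and parental DMSO cells. With largazole 1 of the 8 was higher and 3 lower in KD cells, beside 24.6% and 23.1% of all tested genes. In parental cells 2 were higher and 3 lower, beside 26.8% and 22.6%. KD over parental gave 5 of the 8 higher and 0 lower under largazole and 7 higher and 0 lower in DMSO, beside 8.12% and 7.11% of all tested genes higher, and the 7 became 4 without either parental DMSO library. The 10 myeloid markers summed to 56.3 to 70.5 CPM in KD largazole, 52.8 to 53.2 in KD DMSO, 74.7 to 75.1 in parental largazole and 40.2 to 42.2 in parental DMSO libraries. Their largest members, Cd68 and Cd14, went opposite ways with largazole. Cd68, a lysosomal protein gene, rose 10.1-fold in KD cells and 14.8-fold in parental cells (adjusted p = 1.92e-07 and 5.26e-08, edgeR). Cd14 fell 2.80-fold in KD cells and 3.16-fold in parental cells (adjusted p = 6.58e-05 and 4.18e-05, edgeR). Adgre1 and Tyrobp were at 0 in every library, but other low myeloid markers were not. Summed by group, Ptprc held 16 counts in KD largazole, 0 in KD DMSO, 24 in parental largazole and 0 in parental DMSO libraries. Csf1r held 20, 5, 11 and 5 counts in the same order, and Itgam 2, 1, 7 and 8. T, B and mast cell markers summed to 0.857 to 3.49 CPM and endothelial markers to 5.38 to 9.19 CPM. The part of the fibroblast, Cd68 and Cd14 levels in the results for Il33, Il1rl1, Il1r1 and Il1rap was not tested.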

How the data were processed

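Polyadenylated RNA of A223 cells was sequenced in 8 directional libraries, per the labels' protocols. The deposited files hold estimated counts per gene symbol, not normalized, with genome build mm10 per the submitters' processing notes. Which aligner, counting program, strand option and annotation were used is not given in the sources used here. Those expected counts were rounded to whole numbers. Of 24411 symbols 27 had been turned into dates (at most 0.312% of a library) and carry no gene name.

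Genes were tested with edgeR 4.0.16's quasi-likelihood test (R 4.3.3), two-sided, after TMM scaling. Genes were kept by filterByExpr with a minimum count of 10 and a minimum total of 15. The fit used all 8 libraries with 1 mean per group. Adjusted p is by Benjamini-Hochberg over 12517 genes, with a threshold of 0.05, and SE was obtained from the F statistic as |log2 fold change| / √F. The steps were run on simulated data with the same spread for all genes and groups. The KD largazole libraries varied more than the other groups, so that run does not give the error rate in these data. Members below the filter are given as counts, with exact 95% binomial intervals. Positions and exon lengths came from GENCODE M21 on GRCm38, the assembly of mm10.

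The members, the 11 gene lists and the tests were chosen with earlier results of these data known. The text names the 8 members, Prdx6, Rn45s, up to 4 passing genes per list and comparison with a mean of at least 5 CPM, and the 3 genes nearest each tested member. Not every gene the rule allows is described. Ptgs2, Myd88, Il18r1, Il18rap and the cell markers outside that rule were named after their values were seen. Alternatives were other scalings, filters, DESeq2 1.42.0, limma-voom (limma 3.58.1), a fit of only the libraries compared, the replicate number as a block, removal of Rn45s and leaving out each library. Applying them to list counts was decided after seeing the data. A library that was left out leaves 1 in its group, whose spread is taken from the rest.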

Additional observations from a re-analysis of the deposited data

Results flagged for a closer look

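1 result differed by its test between the kinds of cell under the same treatment, and 1 more had values of opposite sign in them without passing that test. The largazole response of Il33 was a fall in both, and KD minus parental was 1.11 log2 (adjusted p = 0.0038, edgeR quasi-likelihood). The largazole values of Il1rl1 had opposite signs. Both KD largazole libraries lay below both KD DMSO libraries, and both parental largazole libraries lay above both parental DMSO libraries. The fall in KD cells passed (adjusted p = 0.00345, edgeR quasi-likelihood). In parental cells the rise did not pass (adjusted p = 0.0705, edgeR quasi-likelihood). Here and above, non-overlap of 2 against 2 libraries is a description, and its share over all genes is not given. For Il1rl1 KD minus parental was -0.63 log2, and the test of this difference did not pass (adjusted p = 0.110, edgeR quasi-likelihood). No group is large enough for a test of single outlying libraries.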

How the results depend on the processing

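Over 18 alternatives no log2 fold change of a called value changed sign. Of 445 recomputed values of the 5 tested members, 404 kept their side of the threshold, 19 lost it and 22 gained it. Il33 passed in all 18 for both largazole and both KD comparisons. The number of members called for KD over parental in DMSO was 3, but 5 with no filter on low counts, where Il1a and Il1rap also passed (adjusted p = 0.0315 and 0.0149, edgeR), and 2 to 5 with 1 library left out. Under largazole it was 3, but 1 with only the libraries compared and 1 to 4 with 1 library left out. For the difference between responses it was 1, but 2 with no filter, with DESeq2 or with the replicate block, and 0 to 2 with 1 library left out. A fit of only the libraries compared is not possible for that difference. With largazole the count with 1 library left out was 3 to 4 in KD cells and 2 to 4 in parental cells. Over all genes the called number moved most for the difference (29, but 116 with no filter, 83 with DESeq2, 119 with the replicate block and 2 to 544 with 1 library left out). KD over parental called 1392 genes in DMSO, but 3249 with only the libraries compared and 418 to 3014 with 1 left out, and 2227 under largazole, but 957 and 813 to 4121. The cause of these changes was not tested. The labels give same-numbered libraries only a number in common, and whether they shared a batch was not tested. The deviations of these libraries correlated between -0.01 and 0.36 over 6 pairs of groups, above 0.1 in 4. The main fit took no account of this. With the replicate block Il1rl1 passed for largazole in parental cells (adjusted p = 0.0433) and for the difference (0.0246), and Il1rap for KD over parental in DMSO (0.00746), all by edgeR. The call of Il18 for largazole in parental cells was lost with DESeq2 (0.0520). Depth limits Il1a, Il1b, Il1rn and Il18 most.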
